A study of Mus musculus with 2 samples.

Results

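Among adherent GL261 cells, the 404 cells with the highest summed level of 5 genes (Cited1, Phlda2, Ubtd1, Grwd1 and Fam89b) were described as Cited1 and Phlda2 high cells. They were chosen by the UMIs of these 5 genes divided by all UMIs of the cell. The score was taken after mitochondrial and ribosomal protein genes were removed, in cells that passed the minimums of UMIs and genes for adherent cells. The members are the top 8% of 5051 kept adherent cells, and they were compared with the 2525 cells in the bottom 50% of the same score. Between these groups lay 2122 cells. The levels of the 5 genes therefore chose the members and are given only as a description.

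GL261 is an astrocytoma cell line from C57BL/6 mice. The study sequenced 1 library of adherent cells, grown in DMEM with serum, and 1 library of neurospheres, grown after EGF, FGF and B-27 were added to that medium. The 2 libraries held 5051 and 4276 kept cells, 9327 in all, with a median of 8260 and 13198 UMIs per cell, and 9 barcodes of kept cells occurred in both. With 1 library per condition there was no replicate, so no test was run, and every interval below is an exact 95% interval that covers counting error only.

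Cited1 encodes a transcriptional coregulator that does not bind DNA itself and acts through the coactivators CBP and p300. It is known as a marker of nephron progenitors and is also expressed in melanocytes. Phlda2 encodes a small pleckstrin homology domain protein. The gene is imprinted, is expressed from the maternal allele and restrains growth of the placenta. Of the other score genes, Ubtd1 encodes a partner of the UBE2D ubiquitin-conjugating enzymes, Grwd1 a nucleolar WD-repeat protein of ribosome biogenesis, and Fam89b an adaptor of kinases that act on the actin cytoskeleton. In the GENCODE annotation of GRCm38, Cited1 lies on the minus strand at chrX:102247381-102252181 and Phlda2 on the minus strand at chr7:143501545-143503150. Ubtd1 lies on the plus strand at chr19:41981763-42034643, Grwd1 on the minus strand at chr7:45825223-45830944, and Fam89b on the minus strand at chr19:5728087-5729653.

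The sequences before the transcription start of both leading score genes and of 2 genes that were higher with them, Areg and Dusp2, are shown to give the start regions of genes named often below. They come from RefSeq on GRCm38.p6 and are written 5′ to 3′ on the strand of the gene. Capitals mark motifs searched on both strands. The TATA box was searched as TATAAA. The GC box, a site of Sp1-type factors, was searched as GGGCGG. The CCAAT box was searched by its own letters. The cAMP response element, a site of the CREB factors, was searched as TGACGTCA. The E-box, a site of Myc and Usf factors, was searched as CACGTG.
Cited1, chrX:102252182-102252431, minus strand: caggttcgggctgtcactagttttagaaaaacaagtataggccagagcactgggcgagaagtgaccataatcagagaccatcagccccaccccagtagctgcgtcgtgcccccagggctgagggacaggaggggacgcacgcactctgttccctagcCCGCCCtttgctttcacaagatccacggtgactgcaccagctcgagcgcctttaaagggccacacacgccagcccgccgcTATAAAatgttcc
Phlda2, chr7:143502542-143502774, minus strand: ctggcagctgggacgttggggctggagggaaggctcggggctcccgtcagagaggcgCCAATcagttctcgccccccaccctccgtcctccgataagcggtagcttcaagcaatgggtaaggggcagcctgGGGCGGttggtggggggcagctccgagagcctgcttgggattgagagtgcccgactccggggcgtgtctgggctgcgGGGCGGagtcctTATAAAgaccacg
Areg, chr5:91139349-91139598, plus strand: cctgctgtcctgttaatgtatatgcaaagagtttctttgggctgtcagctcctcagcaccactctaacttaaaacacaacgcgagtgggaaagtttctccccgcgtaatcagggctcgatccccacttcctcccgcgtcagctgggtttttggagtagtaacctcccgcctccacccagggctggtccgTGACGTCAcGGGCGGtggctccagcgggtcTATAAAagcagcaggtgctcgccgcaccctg
Dusp2, chr2:127335909-127336158, plus strand: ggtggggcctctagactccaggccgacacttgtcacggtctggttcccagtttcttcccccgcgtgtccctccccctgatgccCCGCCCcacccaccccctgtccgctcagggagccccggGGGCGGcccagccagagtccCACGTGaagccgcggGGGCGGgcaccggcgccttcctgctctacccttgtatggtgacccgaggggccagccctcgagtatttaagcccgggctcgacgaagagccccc

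Cited1 held a TATA box from position -13 and Phlda2 from position -30, counted back from the listed start. Areg held a TATA box from -31 and a cAMP response element from -61, and Dusp2 held an E-box from -109. A TATA box occurred in 13.0% of 27025 promoters of the same length and in 20.3% of the 59 promoters found for genes higher in the members. A cAMP response element occurred in 1.62% of all promoters and an E-box in 6.05%, against 1.69% and 10.2% for genes higher in the members. GC boxes were in 32.9% of all promoters and CCAAT boxes in 34.5%, against 61.0% and 37.3%. For the 238 promoters found for lower genes, the shares were 8.40% for the TATA box and 66.0% for the GC box, so GC boxes were common in both sets. The 27025 promoters include genes not expressed in these cells. None of the 4 windows held an AP-1 site (TGANTCA), an ETS site (CCGGAAG) or a TEAD site (GGAATG). A match says only that these letters lie in the window. Cited1 has 3 starts listed, of which the first is shown, and Phlda2 is shown up to position -18, since GENCODE lists the bases after it as untranslated sequence of Phlda2. The whole Phlda2 window lies inside the span that GENCODE gives for the gene, within an exon of a noncoding Phlda2 transcript.

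The score itself ran without a gap from members to the rest. The lowest member had 16.9 score UMIs per 10000 (14 of 8291 UMIs) and the highest cell outside had 16.9 as well (13 of 7705 UMIs). Within 10% of this edge lay 102 members and 160 other cells. The members' score had a median of 21.7 per 10000 and reached 105, and the median member carried 18 UMIs of the 5 genes against 2 UMIs in the bottom 50%. In 425 cells (8.41% of kept cells) no UMI of the 5 genes was found. Members had a median of 7944 UMIs and 2881 genes, and cells of the bottom 50% had 8054 UMIs and 3005 genes, so the groups were of like depth.

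Cited1 and Phlda2 made up most of the score. Cited1 stood at 1455 CPM (UMIs of a gene per 1000000 UMIs, pooled over cells) in the members, with an interval of 1416 to 1495 CPM. It was lower at each rank below, at 560 CPM in the cells from 75% to 92%, 258 CPM from 50% to 75% and 73.4 CPM in the bottom 50%. Phlda2 stood at 936.5 CPM in the members and 145 CPM in the bottom 50%, with 646.5 and 412 CPM between. The members held 5219 UMIs of Cited1 and 3359 of Phlda2, which are 57.9% and 37.3% of their score UMIs. The other 3 genes gave 157 UMIs (Ubtd1), 139 UMIs (Grwd1) and 137 UMIs (Fam89b). Ubtd1 stood at 43.8 CPM in members against 16.8 in the bottom 50%, Grwd1 at 38.8 against 20.3 CPM, and Fam89b at 38.2 against 21.5 CPM. For these 3 genes the cells from 75% to 92% of the score, at 39.4, 36.2 and 36.2 CPM, lay within the counting intervals of the members. Most members therefore entered through Cited1 or Phlda2.

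**Figure D1:**
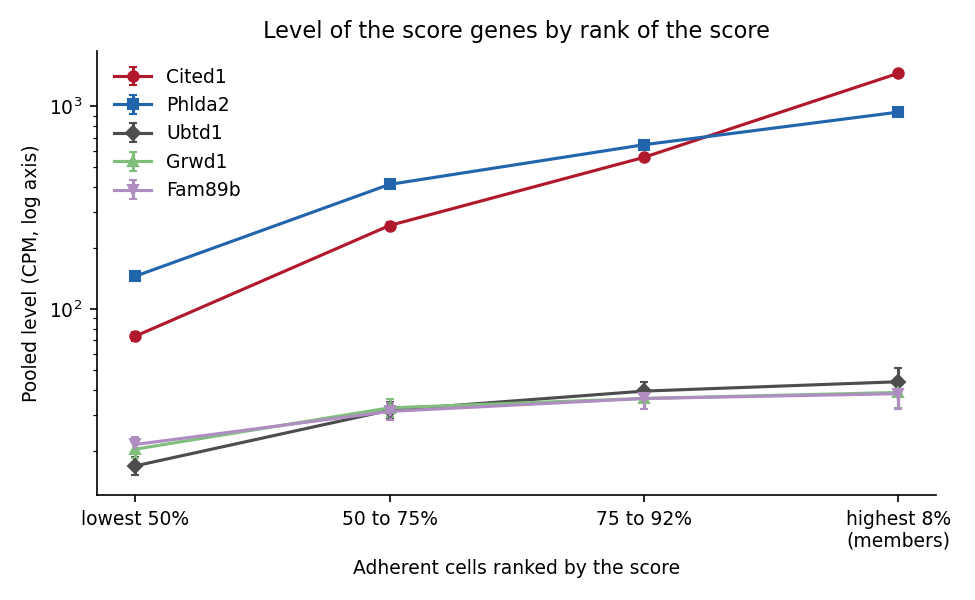
Pooled level of each score gene (CPM, log axis) in adherent cells grouped by rank of the score, from the lowest 50% to the highest 8%. Bars are exact 95% Poisson intervals. Cited1 goes from 73.4 to 1455 CPM and Phlda2 from 145 to 936.5 CPM, while Ubtd1, Grwd1 and Fam89b lie between 16.8 and 43.8 CPM.

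UMIs of Cited1 were found in 90.8% of members and 37.7% of the bottom 50%, and UMIs of Phlda2 in 91.3% and 61.5%. Ubtd1, Grwd1 and Fam89b were found in 30.9%, 26.7% and 27.7% of members. All 5 genes were detected together in 14 members, 4 genes in 62, 3 genes in 142, 2 genes in 151 and a single gene in 35. The adherent library holds no cell type that should lack these genes, so the background share from free RNA could not be set beside these shares.

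To read each gene in UMIs that the ranking did not use, each score gene was left out in turn and cells were ranked by the other 4. Ranked in this way, Cited1 stood at 346 CPM in the highest 8% and 285 CPM in the lowest 50%, a ratio of 1.21 and a log2 ratio of 0.28 (interval 0.19 to 0.37). Phlda2 stood at 378 against 326 CPM, a ratio of 1.16. The ratio was 1.44 for Ubtd1, 1.27 for Grwd1 and 1.28 for Fam89b, with all 5 intervals above 0 on the log2 scale. Across the 5051 cells, shares of the gene pairs correlated with r from -0.0011 (Cited1 and Grwd1) to 0.11 (Cited1 and Phlda2). These values are across cells of 1 library and share the total UMIs of each cell. Ubtd1, Grwd1 and Fam89b were each found in 19.9% to 21.1% of kept cells, and a weak correlation in such sparse counts is no finding. The left-out ratios were 1.44 or less, and the cells are named here only by the genes that led the score, Cited1 and Phlda2. The name does not mean that each member was high in both genes.

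In the neurosphere library the same left-out ratios were 2.51 for Cited1 (282 against 112 CPM), 4.22 for Phlda2 (50.8 against 12.0 CPM) and 4.07 for Ubtd1 (70.8 against 17.4 CPM). They were 1.26 for Grwd1 and 1.42 for Fam89b. For Cited1, Phlda2 and Ubtd1 the intervals of the 2 libraries did not overlap, while those of Grwd1 and Fam89b did. Library and culture cannot be told apart here.

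**Figure D2:**
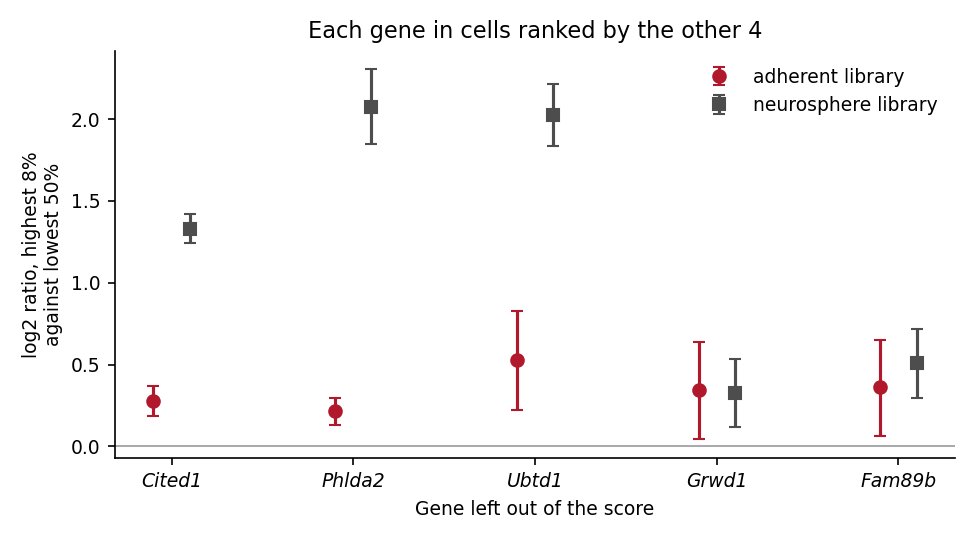
The log2 ratio of each score gene between the highest 8% and lowest 50% of cells ranked by the other 4 genes, in both libraries, with exact 95% counting intervals. Adherent ratios lie between 0.22 and 0.53, and neurosphere ratios reach 2.08 for Phlda2 and 2.02 for Ubtd1.

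The members split by which gene led, a split made after the values were seen. In 234 members (57.9%) Cited1 had more UMIs than Phlda2, in 160 members (39.6%) Phlda2 had more, and 10 members held equal numbers. UMIs of both genes were present in 332 of the 404 members. In the Cited1-led cells Cited1 stood at 2164 CPM and Phlda2 at 471 CPM. In the Phlda2-led cells the levels were 415 and 1628 CPM. Over all kept adherent cells Cited1 stood at 316 CPM and Phlda2 at 366.5 CPM. Ubtd1 was alike in both subsets (43.3 and 45.0 CPM), and Grwd1 was at 30.5 and 52.2 CPM. Median depth was 7684 and 8162 UMIs.

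The members differed from the bottom 50% in genes outside the score. Of 6123 genes with at least 500 UMIs over both groups, 82 genes (1.34% of those measured) were at least 1.5-fold higher in the members and 310 genes (5.06%) were at least 1.5-fold lower. The median gene had a log2 ratio of -0.08, and after scaling by that median the counts were 109 higher and 237 lower. At the bottom 50% rate in both groups, 74 of the 82 higher genes would hold 500 UMIs and 8 would not, so these 8 were measured only through their level in members. Il11, Areg, Dusp2, Wfdc1 and Lgi3 are among the 8. The lower genes were not counted in this way, and many of the 310 reached 500 UMIs only through the bottom 50%. Of those named below, Ly6c1 (41 UMIs in members), Lhfpl3 (51 UMIs), Lpar4 (54 UMIs), Kif11, Stat2, Pmel, Dbp and Tacc2 are among these. The 12 highest genes were Il11, Areg, Vgf, Dusp2, Spp1, Mt3, Gm13889, Igf1, Prss56, AA467197, Wfdc1 and Slc30a4, a zinc exporter gene.

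Il11, a cytokine of the IL-6 family, lies on the minus strand at chr7:4772373-4782859 and had the largest ratio against the bottom 50%. Its level was 12.1 CPM in the bottom 50%, 20.2 CPM in cells from 50% to 75% of the score, 53.4 CPM from 75% to 92% and 135 CPM in members. The ratio of members to the bottom 50% was 11.1-fold, a log2 ratio of 3.48 (interval 3.26 to 3.70). UMIs of Il11 were found in 103 members (25.5%) and in 4.87% of the bottom 50%, and with every cell thinned to 3000 UMIs the shares were 17.9% and 2.01%. A single member held 33 of the 484 UMIs, and without it the log2 ratio was 3.38. Against all other kept cells, which hold the ranks between, the log2 ratio was 2.59 for Il11 and 3.02 for Areg. With Cited1 left out of the score it was 0.9965 for Il11. Leaving Cited1 out also gave 1.099 for Areg, 0.69 for Vgf, 1.04 for Dusp2, 0.99 for Spp1 and 0.85 for Mt3, while Gm13889 (0.024), Slc30a4 (0.11) and AA467197 (0.31) were then no longer past 1.5-fold. With the highest 4% of cells in place of 8% the log2 ratio was 4.15 for Il11 and 3.97 for Areg, and with the highest 16% it was 2.44 for Areg.

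Areg, which encodes the EGF receptor ligand amphiregulin and lies on the plus strand at chr5:91139599-91148432, stood at 117 CPM in members. It stood at 12.9, 13.5 and 19.9 CPM in the ranks below, from the bottom 50% upward. Of its 420 UMIs in members, 145 (34.5%) came from a single cell, and without that cell the log2 ratio changed from 3.18 to 2.58. UMIs of Areg were found in 15.1% of members and 5.86% of the bottom 50%.

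Vgf, the precursor of several neuroendocrine peptides, was higher at each rank of the score, at 33.3, 62.8, 101 and 231 CPM, and was found in 51.7% of members against 14.4% of the bottom 50%. Its log2 ratio was 2.80 (interval 2.65 to 2.94), and 2.08 against all other kept cells. Mt3, a brain metallothionein, stood at 384 CPM in members and 96.8 CPM in the bottom 50%, a log2 ratio of 1.99, and was found in 61.1% and 32.4% of cells. Dusp2, a nuclear phosphatase of MAP kinases, stood at 76.1 and 17.1 CPM, a log2 ratio of 2.15, or 1.499 against all other kept cells. Each of these 3 genes was also higher in the cells from 75% to 92% of the score than in those below, so their levels were graded over the ranks.

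Spp1, which encodes osteopontin, stood at 122 CPM in members and 29.2 CPM in the bottom 50%. It was found in 13.4% and 7.60% of cells, and a single member held 18.2% of its UMIs, without which the log2 ratio changed from 2.07 to 1.79. Against all other kept cells it was 1.25, and without cells over the 95th percentile of UMIs 1.48. Igf1, a growth factor, stood at 109 and 40.0 CPM (log2 ratio 1.45), and Prss56, a secreted serine protease, at 70.5 and 27.3 CPM (1.37). The other 4 of the 12 highest genes were Gm13889 (log2 ratio 1.60), AA467197 (1.36), Wfdc1 (1.36), a whey acidic protein family member, and Slc30a4 (1.33).

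Most of these genes differed between members led by Cited1 and members led by Phlda2. Il11 stood at 176 CPM in Cited1-led members and 81.5 CPM in Phlda2-led members, Areg at 167 and 40.0 CPM (98.7 and 40.0 CPM without the Cited1-led cell with the most UMIs of it), Vgf at 294 and 136 CPM, and Mt3 at 478 and 250 CPM. AA467197 (310 and 117 CPM) and Slc30a4 (115 and 46.5 CPM) had the same order. Spp1 had the reverse order, at 114 and 143 CPM, and at 76.4 and 143 CPM without the Cited1-led cell with the most UMIs of it. The intervals of the subset ratio for Igf1, Prss56 and Wfdc1 included 0, although for Wfdc1 the interval was -1.03 to -0.03 without its highest cell. Rankings by single genes were added after the values were seen. When cells were ranked by Cited1 alone, the log2 ratio was 3.58 for Il11, 2.80 for Areg and 3.03 for Vgf, and 79 genes were higher and 299 lower. Ranked by Phlda2 alone, the same genes gave 0.37, 0.93 and 0.73, with 41 genes higher and 181 lower. Spp1 gave 1.92 ranked by Cited1 and 0.85 ranked by Phlda2, unlike its order in the subsets, and Wfdc1 gave 1.08 in both rankings. Ranked by Ubtd1, Grwd1 and Fam89b alone, Il11, Areg and Vgf gave 0.65, 0.11 and -0.09, and only 2 genes were higher and 39 lower. In this ranking many cells had no UMI of Ubtd1, Grwd1 or Fam89b and were tied at 0.

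**Figure D3:**
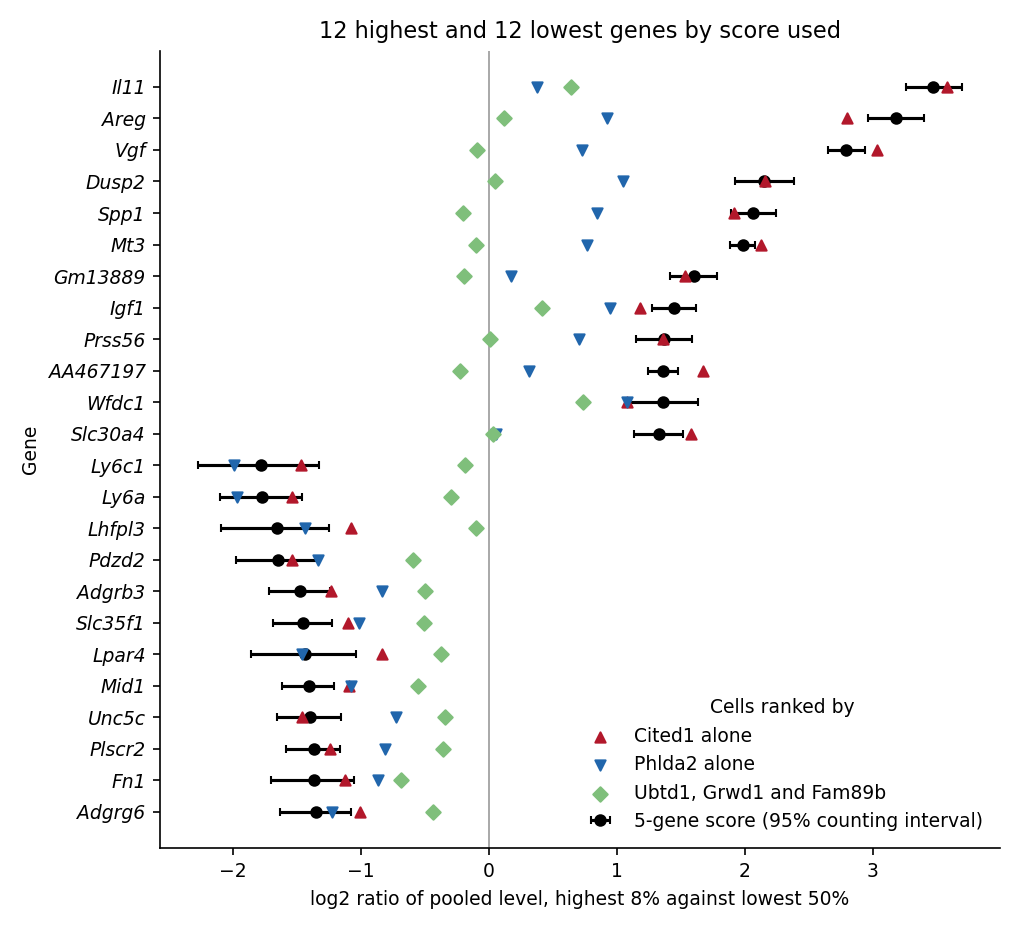
The log2 ratio of the 12 highest and 12 lowest genes between the highest 8% and lowest 50% of adherent cells, ranked by the 5-gene score (black, with exact 95% counting intervals), by Cited1 alone, by Phlda2 alone or by the other 3 genes. For Il11 the Cited1 ranking gives 3.58 and the Phlda2 ranking 0.37, while for Ly6a they give -1.54 and -1.97.

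The 2 lowest genes were Ly6c1 and Ly6a. Ly6c1 and Ly6a, which encode GPI-anchored surface proteins, stood at 11.4 and 24.3 CPM in members against 39.3 and 82.8 CPM in the bottom 50%, log2 ratios of -1.78 and -1.77. Their levels were lower at each higher rank, and cells from 75% to 92% of the score were already at 12.3 and 26.7 CPM. Both were low in either subset of the members, with Ly6a at 27.1 CPM in Cited1-led and 21.4 CPM in Phlda2-led cells. Ranked by Phlda2 alone the 2 genes gave -1.99 and -1.97, and ranked by Cited1 alone -1.47 and -1.54. With the highest 4% of cells Ly6c1 gave -2.43.

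The other 10 of the 12 lowest genes had log2 ratios from -1.66 to -1.35. They were Lhfpl3 and Slc35f1, which encode multispanning membrane proteins, Pdzd2, a PDZ domain gene, and Adgrb3 and Adgrg6, adhesion G protein-coupled receptors. Further members of this set were Lpar4, a lysophosphatidic acid receptor, Mid1, a microtubule-associated ubiquitin ligase, Unc5c, a netrin receptor, Plscr2, a phospholipid scramblase gene, and Fn1, which encodes fibronectin. Lhfpl3 stood at 14.2 CPM in members and 44.8 CPM in the bottom 50%, Adgrb3 at 42.7 and 119 CPM, and Fn1 at 23.98 and 61.9 CPM. UMIs of Mid1 were found in 36.1% of members and 55.0% of the bottom 50%.

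Genes lower in members were longer than the rest. Their median gene span was 58.7 kb, against 24.6 kb over the measured genes and 13.1 kb for the higher genes, and 36.5% of them spanned over 100 kb against 14.2% of the measured genes. The nuclear long noncoding RNAs Malat1 (2382 against 3514 CPM) and Neat1 (159 against 210 CPM) were below 0 on the log2 scale as well, at -0.56 and -0.40. Members had a median ribosomal share of 30.6% of UMIs against 28.8%, and a ribosomal share under 20% occurred in 5 members (1.24%) and 109 cells (4.32%) of the bottom 50%. Without those cells, an alternative added after the values were seen, 82 genes were higher and 274 lower, of which 77 and 272 were among the main sets. Mitochondrial shares were 2.02% and 2.07%. The part of RNA content or nuclear RNA in these differences was not tested.

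Mitotic genes were lower as a group. Of 49 measured G2/M genes, 21 were at least 1.5-fold lower, against 5.06% of all measured genes, none was higher, and all 49 had a log2 ratio below 0, with a median of -0.53 against -0.08 over all measured genes. Kif11, a spindle motor, stood at 10.3 against 23.4 CPM (log2 ratio -1.18), Cenpe, a kinetochore motor, at 46.3 against 103 CPM (-1.15), and Mki67, the Ki-67 proliferation marker, at 44.0 against 91.5 CPM (-1.05). Kif11, with 37 UMIs in members and 518 in the bottom 50%, reached the UMI minimum only through the bottom 50%. How many of the 21 genes did so was not counted. The smallest difference in the list was that of Anp32e (-0.10). Of 34 measured G1/S genes none reached 1.5-fold in either direction, and their median was -0.12. By the summed G2/M level, 63.4% of members and 46.3% of the bottom 50% lay at or below the median of kept cells. Within these cells the log2 ratios were 3.70 for Il11, 3.12 for Vgf, 1.82 for Mt3, 2.39 for Areg and 1.34 for Spp1, and 47 genes were higher and 113 lower among 3443 measured.

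Interferon-induced genes were lower in part. Of 15 measured genes 5 were at least 1.5-fold lower and none higher, against 5.06% lower over all measured genes, and the median was -0.45. The 5 genes were Cxcl10, a chemokine (156 against 365 CPM, log2 ratio -1.22), Ifit1 (-0.84), Ifit3 (-0.82), Rsad2 (-0.80) and Stat2 (-0.72). By contrast Isg15 was at -0.45 and the antigen presentation genes B2m, H2-D1 and H2-K1 at -0.07, -0.06 and -0.02. Stat2, with 64 UMIs in members and 653 in the cells they were compared with, reached the UMI minimum only through the latter. Nothing is read from its place among the 5 genes. The other genes called lower, Cxcl10, Ifit1, Ifit3 and Rsad2, each had at least 442 UMIs in members.

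The counts for growth factor and matrix signalling lists stand against 1.34% of all measured genes higher and 5.06% lower. Of 12 measured ERK feedback targets only Il11 was past 1.5-fold, which passed the UMI minimum through members alone, so nothing is read from this count. The median of the list was 0.11, with Hmga2 at 0.57 and the transcription factor Etv1 at -0.52. Of 11 measured immediate early genes none was past it, with a median of 0.15 and a range from -0.52 (Klf4) to 0.57 (Ier3). Of 5 measured YAP/TEAD targets F3, which encodes tissue factor, was lower at 278 against 606 CPM (-1.12) and Ccn1 at 32.6 against 59.7 CPM (-0.87), and none was higher. Of 3 measured TGF-beta and BMP targets, Id2 was lower (-0.63), while Id3 (-0.51) and Id1 (-0.19) were not past 1.5-fold.

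The metabolic and stress lists had medians from -0.09 to 0.19, and their counts stand against the same shares of all measured genes. Of 14 measured cholesterol synthesis genes 2 were higher, Msmo1 (435 against 245 CPM, log2 ratio 0.83) and Fdft1 (0.75), both enzymes of the pathway, and the median was 0.19, against -0.08 over all measured genes. The summed level of the list gave a log2 ratio of 0.26 (interval 0.22 to 0.30). Of 13 measured Nrf2 targets only Srxn1, which encodes sulfiredoxin, was higher (1.20), with a median of -0.03. Of 9 measured hypoxia and glycolysis genes none was past 1.5-fold (median 0.18), nor was any of 15 integrated stress response genes (median -0.00017) or of 18 respiratory chain genes (median 0.03). Of 10 measured chaperone genes only the small heat shock gene Cryab was lower, at 2225 against 3450 CPM (-0.63). Of 14 cell cycle inhibitors and p53 targets none was past 1.5-fold, with Cdkn1a at -0.10 and Bbc3 at 0.54. Of 15 contractile cytoskeleton genes only Tpm2, a tropomyosin gene, was higher (0.83), and the median was -0.15.

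None of the measured partners and relatives of the score genes was past 1.5-fold, against 1.34% of all measured genes higher and 5.06% lower. The 7 measured genes of the CITED and CBP/p300 list had a median of -0.31, with Crebbp at -0.49, Smad2 at -0.35, Smad1 at -0.32, Smad4 at -0.31, Ep300 at -0.15, Cited2 at -0.01 and Tfap2a at 0.25. Of the PHLDA family, Phlda1 stood at 1268 against 1018 CPM (0.32) and Phlda3 at 235 against 222 CPM (0.08). The neighbours of Phlda2 in its imprinted domain, Nap1l4 and Cars, were at 0.05 and -0.14, and Cdkn1c had 5 and 11 UMIs. Of 5 other measured imprinted genes none was past 1.5-fold. All 11 measured genes of ubiquitin conjugation lay between -0.29 and 0.22, and all 27 measured genes of ribosome biogenesis between -0.21 and 0.24. Of 20 Myc and growth targets none was past 1.5-fold, and their median was 0.04.

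**Figure D4:**
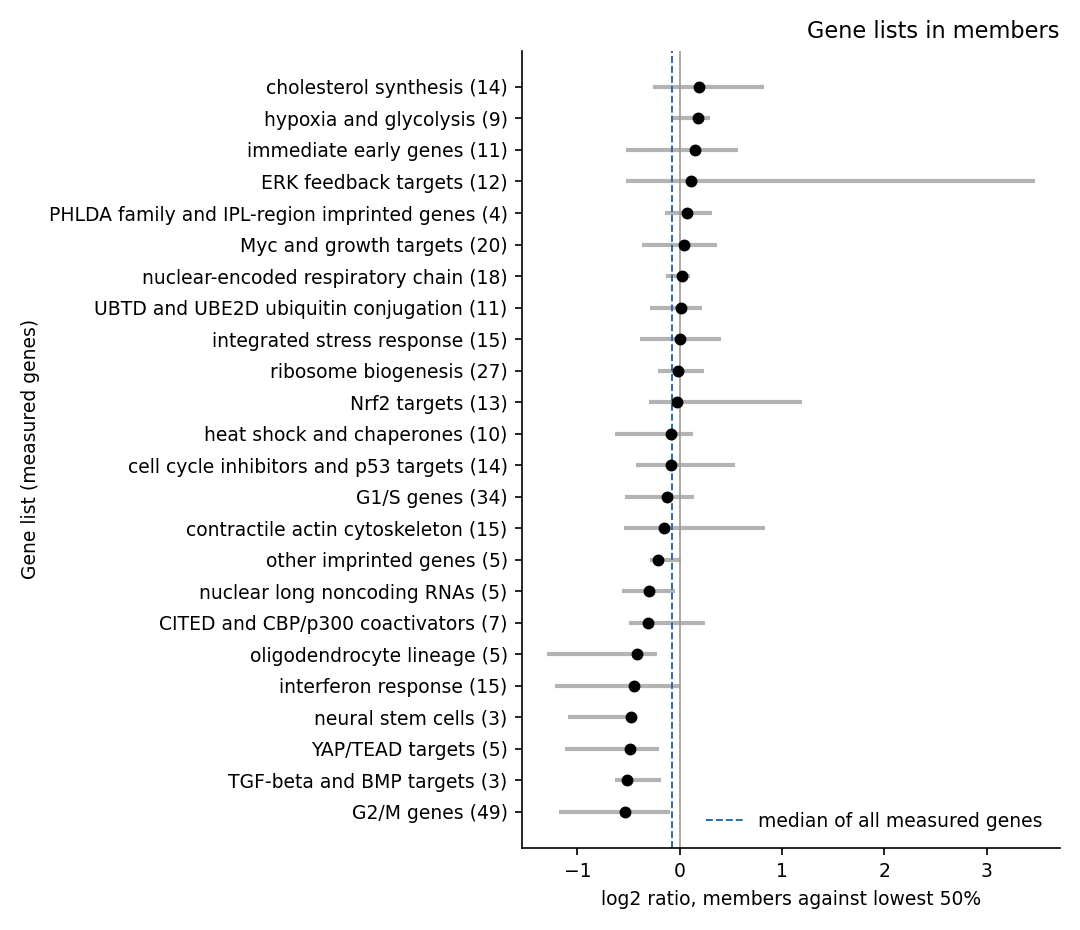
Log2 ratio of members against the lowest 50% for lists with at least 3 measured genes, without the leading genes of other adherent states. Points are medians over the genes of a list, bars run from the lowest to the highest gene, the number of measured genes stands in brackets, and the dashed line is the median of all measured genes (-0.08). Of the medians shown, that of G2/M genes is lowest at -0.53 and that of cholesterol synthesis highest at 0.19.

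All measured markers of oligodendrocyte lineage, astrocytes and neural stem cells had log2 ratios below 0, with medians of -0.42, -0.45 and -0.48, and 1 of 5, 0 of 2 and 1 of 3 were at least 1.5-fold lower, against 5.06% of all measured genes. In the neurosphere library 5 of 6 measured oligodendrocyte lineage genes were lower, against 11.3%. Mbp, a myelin gene, stood at 133 against 327 CPM (log2 ratio -1.30) and was the only one of 5 measured oligodendrocyte lineage genes past 1.5-fold, with Olig1 and Olig2 both at -0.42 and Sox10 at -0.22. Fabp7, a fatty acid binding protein of neural progenitors, stood at 23.1 against 49.5 CPM (-1.10), and Sox2 and Nes were at -0.48 and -0.42. Neither of the 2 measured astrocyte genes, S100b and Slc1a3, was past 1.5-fold, at -0.53 and -0.38, and Gfap had 2 and 21 UMIs. Of the nephron progenitor list 1 UMI was found in members and 7 in the bottom 50%, and of the trophoblast list 0 and 6. The melanocyte genes Tyr, Mlana and Tyrp1 had no UMI in members, and Pmel was lower (-0.81). Of 6 immune markers Ptprc, Cd3e and Aif1 had no UMI in members. The immune list as a whole held 93 UMIs in members and 224 in the bottom 50%, of which 83 and 155 were of Cd68, a lysosomal protein gene. The epithelial list held 146 and 337 UMIs, nearly all of Epcam (144 and 329), with Krt5 at 0. Cd68 stood at 23.1 against 6.99 CPM and Epcam at 40.2 against 14.8 CPM, and neither reached the 500 UMIs set for a call. Their part in the other differences was not tested.

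Of 8 measured leading genes of other adherent states, 3 were higher and 5 lower, against 1.34% and 5.06% of all measured genes, and these genes had been picked as leading genes. They split with Vgf, Spp1 and Mt3 higher and Ly6a, Lhfpl3, Cxcl10, Tex14 and Col2a1 lower in members, and Krt8 had 34 UMIs (9.48 CPM) in members and 43 (1.94 CPM) in the bottom 50%, too few for a call. Tex14, a gene of intercellular bridges in germ cells, stood at 165 against 370 CPM (-1.17), and Col2a1, the cartilage collagen gene, at 28.7 against 61.2 CPM (-1.09).

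Members differed among themselves in which of the higher genes were detected. Of the 6 highest genes (Il11, Areg, Vgf, Dusp2, Spp1 and Mt3), none was detected in 13.1% of members, and 3 of them were detected in 17.8%. These genes were chosen for their level in members, and Il11, Areg and Dusp2 reached the UMI minimum only through members. The shares are therefore not compared with the bottom 50%. The 30 nearest cells of each cell were found from 2000 variable genes without the 5 score genes. On average 16.2% of the nearest cells of a member were members, against 4.85% for cells of the bottom 50% and 7.44% over all kept cells. The highest value of any member was 53.3%, and on average most of the nearest cells of a member were other cells.

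Of the measured genes that lie near the score genes on the chromosome, none was higher and 2 were lower. Within 500 kb of them lay 4 measured genes for Cited1, 5 for Phlda2, 6 for Ubtd1, 13 for Grwd1 and 24 for Fam89b. Phka1 near Cited1 (-0.76) and Dbp near Grwd1 (-0.59) were lower. Over all measured genes 1.34% were higher and 5.06% lower, so these counts are near the background. Over chromosomes the median log2 ratio ran from -0.16 to 0.06, and it was -0.05 for the X chromosome.

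In the neurosphere library, which the choice of members did not use, the same score gave 342 cells in the top 8% and 2138 in the bottom 50%. There Cited1 made up 75.05% of the score UMIs, and it stood at 905 against 19.8 CPM. Phlda2 was found in 38.9% of the top cells and 3.98% of the bottom 50%, at 106 and 3.23 CPM. Among 7895 measured genes, 378 (4.79%) were higher and 894 (11.3%) lower. Of the 82 genes higher in adherent members, 51 were measured in the neurosphere library, and 32 of these (62.7%) were at least 1.5-fold higher there too. Of the 310 lower genes, 266 were measured and 100 (37.6%) were lower there too. Both shares lay above the backgrounds of 4.79% and 11.3%. The top cells there were deeper, with a median of 15052 UMIs and 4442 genes against 11824 UMIs and 4135 genes in the bottom 50%. With cells chosen within deciles of UMIs both counts stayed within 1.5 times. How many genes reached 500 UMIs only through the top cells was not counted in this library.

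Of the 12 highest genes, Gm13889 and Slc30a4 were the 2 with enough UMIs in neurosphere cells, at log2 ratios of 1.64 and 1.22. The others were sparse there. Il11 had 129 UMIs in the top 8% and 60 in the bottom 50% (22.1 against 2.04 CPM), Vgf 32 and 15 UMIs, Mt3 251 and 129 UMIs, Spp1 188 and 100 UMIs, and Prss56 195 and 23 UMIs. Areg, with 30 and 78 UMIs, gave a log2 ratio of 0.95 (interval 0.29 to 1.58). Of the lowest genes, Lhfpl3 (-1.88), Pdzd2 (-2.30), Adgrb3 (-2.34), Lpar4 (-1.01) and Unc5c (-0.82) were lower in both libraries. Slc35f1 (-0.18) and Mid1 (-0.17) were near 0, and Ly6a and Ly6c1 had no UMI in either neurosphere group. Adgrg6 went the other way in neurosphere cells, at 0.40 (interval 0.21 to 0.59), as did Plscr2 at 1.90 (interval 1.24 to 2.54) with 37 and 50 UMIs. For G2/M genes the neurosphere median was -0.20, with 6 of 51 lower and 1 higher, which is close to the 11.3% of all measured genes that were lower there. For interferon-induced genes it was 0.41, with 6 of 14 higher and none lower, against 4.79% of all measured genes higher.

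**Figure D5:**
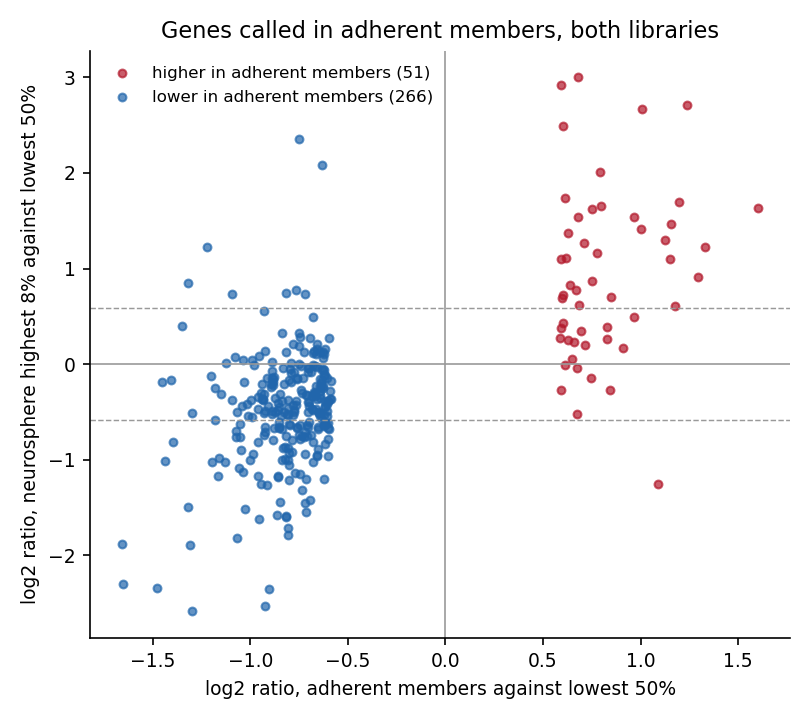
Each point is a gene called in adherent members and measured in both libraries, with its log2 ratio in adherent members (x axis) and in neurosphere cells (y axis). Dashed lines mark 1.5-fold in the neurosphere library. Of the 51 genes higher in adherent members 32 lie above the upper line, and of the 266 lower genes 100 lie below the lower line.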

How the data were processed

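Raw UMI counts of 1 adherent and 1 neurosphere GL261 library (10x Genomics) were used as the authors deposited them. The authors made these counts with Cell Ranger 7.0.1 on the mm10 genome, per the labels, with no further normalization. The setting for intronic reads is not given in the sources used here. The depositions held 32285 genes in 5764 adherent and 4951 neurosphere cells.

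Genes with symbols beginning mt- (13 genes), Rps or Rpl (101 genes) were removed. Cells with at least 1000 UMIs and 1250 genes (adherent) or 2250 genes (neurosphere) were kept. No doublets were removed, and cells over the 95th percentile of UMIs were left out as an alternative. UMIs were summed over each group of cells and given as CPM. Calls were by size alone, at 1.5-fold, for genes whose UMIs over both groups came to 500 or more. Intervals at 95% are exact (Poisson, binomial, or conditional for ratios) and cover counting error only. A UMI count of 0 allows up to 3 counts. Neighbours used 17 principal components and 30 cells.

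Members and the 33 gene lists were chosen with earlier results of these data known. Genes named are the 5 score genes, the 12 highest and 12 lowest ratios, up to 4 of the largest ratios per list, leading genes of other adherent states, and extremes near the score genes. Other genes were named after their values were seen. Positions came from GENCODE M21, which held 32158 of the 32285 identifiers. Promoters came from RefSeq. Ratios and intervals were checked on simulated pooled counts with known fold changes. That simulation held no spread between cells and no choice of cells by a score, so it says nothing about either. Python 3.11.15, numpy 2.4.6, scipy 1.17.1, pandas 2.3.3 and matplotlib 3.10.9 were used.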

Additional observations from a re-analysis of the deposited data

Results flagged for a closer look

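Of the genes called in adherent members and measured in both libraries, 9 were at least 1.5-fold in the opposite direction in the neurosphere library. These were 1 of 51 higher genes (1.96%) and 8 of 266 lower genes (3.01%), both below the 11.3% of all measured neurosphere genes that were lower and the 4.79% that were higher. With 1 library each, the difference between libraries was not tested. Lgi3, a secreted leucine-rich protein gene, was higher in adherent members (40.2 against 18.9 CPM) and lower in the top 8% of neurosphere cells, with a log2 ratio of -1.26 there. Lgi3 is 1 of the 8 higher genes that reached the UMI minimum in adherent cells only through members.

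The other 8 were lower in adherent members and higher in neurosphere cells. Cryab, a small heat shock gene, stood at 2225 against 3450 CPM in adherent cells and at 1206 against 284 CPM in neurosphere cells, a log2 ratio of 2.09 there. Lpcat2, a phospholipid acyltransferase gene, gave -0.75 in adherent and 2.35 in neurosphere cells. The neurosphere log2 ratio was 1.23 for the transcription factor Cebpd, 0.85 for the integrin subunit Itga4, 0.73 for the collagen gene Col2a1, 0.74 for the interferon-induced Ifit3, 0.78 for Tacc2 and 0.73 for the cytokinesis gene Anln. Their adherent log2 ratios were -1.22, -1.32, -1.09, -0.82, -0.77 and -0.72.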

How the results depend on the processing

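Against 82 higher and 310 lower genes, the counts were 258 and 948 with at least 100 UMIs per gene, 28 and 70 with at least 2000 UMIs, and 32 and 103 after thinning every cell to 3000 UMIs, where fewer or more genes could be measured. Leaving Cited1 out of the score gave 51 higher genes. Other rankings, the G2/M split and the limit on ribosomal share were chosen after seeing the data. Of these, Phlda2 alone gave 41 and 181, Ubtd1, Grwd1 and Fam89b alone gave 2 and 39, and cells up to the median of G2/M genes gave 47 and 113, with the last resting on fewer measured genes. Under the Ubtd1, Grwd1 and Fam89b ranking the log2 ratio was below 0 for Vgf (-0.094), Spp1 (-0.20), Mt3 (-0.10), Gm13889 (-0.19) and AA467197 (-0.22). No interval is given for these values, and the cause was not tested. Ubtd1, Grwd1 and Fam89b were each found in at most 21.1% of kept cells. Many cells were therefore tied at 0 in this ranking and were ordered by their place among the barcodes. The left-out log2 ratio of Phlda2 was 0.36 with the top 4% and 0.36 with the top 16% as members, against 0.22. Summed G2/M genes changed from -0.43 to -0.35 and interferon genes from -0.28 to -0.20 when scaled by the median gene ratio, and interferon genes to -0.30 with the score taken on 50% of the UMIs and levels on the rest. That scaling turned the summed ratios of ubiquitin conjugation (0.031), Nrf2 targets (0.027), other imprinted genes (0.049) and contractile actin genes (0.073) from just below to just above 0. The other 17 settings for higher and 18 for lower genes stayed within 1.5 times in count, but the genes called were not all the same. Of the lower genes, 130 of 219 were in the main set with Cited1 left out and 193 of 291 with Phlda2 left out. The overlap was 178 of 272 against all other kept cells and 229 of 385 with the score on 50% of the UMIs. With cells chosen within deciles of UMIs it was 269 of 287. Each condition had 1 library, so no paired analysis was possible and no library could be left out. Genes under 500 UMIs were not called in the main counts.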

Other observations

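Further genes called higher in members, named here after their values were seen, fall outside the lists above. The metallothioneins Mt1 and Mt2 had log2 ratios of 0.83 and 0.85, beside Mt3. In the neurosphere library Mt2 was past 1.5-fold (0.70) and Mt1 was not (0.39). Timp1, an inhibitor of matrix proteases, and Plaur, the urokinase receptor, had log2 ratios of 1.00 and 1.00, and both were higher in the neurosphere library as well (1.42 and 2.67). Ackr3, a chemokine-scavenging receptor, was at 1.24 in adherent members and 2.71 in neurosphere cells. The calcium-binding genes S100a4 and S100a6 were at 1.05 and 0.68, and Lgals3, which encodes galectin-3, at 0.59.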
